A study of Arabidopsis thaliana with 14 samples.

Results

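The leaf response to drought was measured in Arabidopsis thaliana plants labelled camta5 by setting 3 arrays of plants left dry for 14 days against 3 arrays of watered plants. These 6 arrays, chosen by their titles, were part of a set of 14. The label camta5 stood for the mutant line camta5-a in the Col-0 background. Plants were 1 month old, and total RNA of leaves (250 ng) was labelled with biotin and hybridised to an Affymetrix array, 1 array per sample. The groups used were camta5 after 14 days of drought (3 arrays), camta5 with water (3 arrays), wild-type Col-0 after 14 days of drought (3 arrays) and Col-0 with water (3 arrays). A CAMTA5 overexpression line, OX-5, written OX5 here, after 14 days of drought (2 arrays) entered the fit only through the shared estimate of the spread. The labels do not describe the lesion in camta5-a, the number of independent lines or the promoter behind the overexpression. They call the replicates biological without naming separate plants or pots, and p-values thus cover the spread among these samples and no more. The title of camta5 water replicate 1 names camta5, but its genotype field says wild type. It was kept with camta5.

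Drying leaves make abscisic acid, which closes the stomata and switches on genes for proteins that protect membranes and enzymes while water is lost, such as dehydrins and other late embryogenesis abundant proteins. Growth slows, cell walls loosen less, photosynthesis falls, and older leaves break down proteins and chlorophyll and export sugars and nitrogen. CAMTA5 belongs to the calmodulin-binding transcription activators, a small family of plant transcription factors that bind calmodulin, the main calcium sensor protein, and take part in responses to cold, drought and pathogens.

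Each probe set had a linear MAS5 signal, a brightness value without unit that the deposited table had scaled to the same trimmed mean on every array. Differences are on log2(signal + 16), which understates the change of low signals, and the standard error (SE) after ± comes from a spread shared by all groups. A probe set was called where its adjusted p from limma was under 0.05. Across probe sets the Spearman coefficient was 0.942 to 0.946 within camta5 drought, 0.952 to 0.956 within camta5 water, and 0.920 to 0.943 between drought and water. The array with the conflicting genotype entry correlated at 0.954 and 0.956 with the other camta5 water arrays. With the Col-0 water arrays it correlated at 0.945 to 0.958, so these coefficients did not separate it from either group. Single genes were not used to assign it. In bulk leaf RNA, fewer cells of a type and less RNA per cell cannot be told apart.

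The locus of CAMTA5 (AT4G16150) had signals of 265, 284 and 306 in camta5 drought, against 191, 172 and 154 in camta5 water. All drought arrays lay above all watered arrays, and the difference was 0.68 ± 0.22 (adjusted p = 0.0482). Leaving out any 1 of these 6 arrays ended that call, as did leaving out Col-0 drought replicate 3 or either of Col-0 water replicates 2 and 3 (adjusted p up to 0.15). Group means were 285 ± 20.6 in camta5 drought and 172 ± 18.5 in camta5 water, and 198 ± 46.0 in Col-0 drought and 149 ± 32.4 in Col-0 water (SD, n = 3 each). Arrays with the camta5 label thus had no lower signal than Col-0, and since the position of the probes relative to the lesion is not known here, the level does not check the label. Below, camta5 means the arrays with that label. Of its relatives, the locus of CAMTA6 (AT3G16940) had 1093, 1657 and 1443 in drought, against 824, 819.6 and 1089 with water, a difference of 0.60 ± 0.19 (adjusted p = 0.0430). That call was lost without any 1 of drought replicates 2 and 3, water replicates 1 and 2, Col-0 drought replicate 3, Col-0 water replicates 2 and 3 and the OX5 arrays (adjusted p up to 0.176). The locus of CAMTA4 (AT1G67310) had 619, 715 and 563 in drought and 604, 500.2 and 544 with water, and was not called (0.19 ± 0.17, adjusted p = 0.460).

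Drought changed the level of many transcripts in camta5 leaves in both directions. Of 15646 probe sets tested, 2547 were called (16.3%), of which 1357 were higher (8.67%) and 1190 lower (7.61%) after drought. Changes of at least 2-fold numbered 494 higher (3.16%) and 596 lower (3.81%), and changes of at least 8-fold 28 higher and 22 lower. Among genes with a symbol, 108 were called higher and 120 lower. Many called probe sets remain unnamed here, since 1202 of them named no gene in the annotation and 49 named several. With each array centred on its median, which moved the median difference of all probe sets to -0.04 from 0.04 as deposited, the split was 1001 higher and 1547 lower.

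How many probe sets were called depended on single arrays. Without drought replicate 2 the count was 1121, without drought replicate 3 it was 1509, without water replicate 1 it was 1333 and without water replicate 3 it was 1311. Without water replicate 2, 708 probe sets were lower. Without drought replicate 1, 2920 were called, of which 1509 were higher and 1411 lower. Drought replicate 1 moved least from the watered arrays. Over the 1357 probe sets called higher, the median difference from the watered mean was 0.74, 1.01 and 0.89 on drought replicates 1, 2 and 3, and over the 1190 called lower it was -0.79, -1.13 and -1.07. Because of this dependence, a gene is called steady below where it was called in the fit of all arrays and in each of the 14 fits without 1 array, where the camta5 drought and water arrays did not overlap, and where no array left out moved its fold by 1.5 times. Of the probe sets tested, 443 were steady and higher (2.83%) and 401 steady and lower (2.56%). With a symbol there were 36 steady higher and 39 steady lower genes, and these carry most of the account below.

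**Figure D1:**
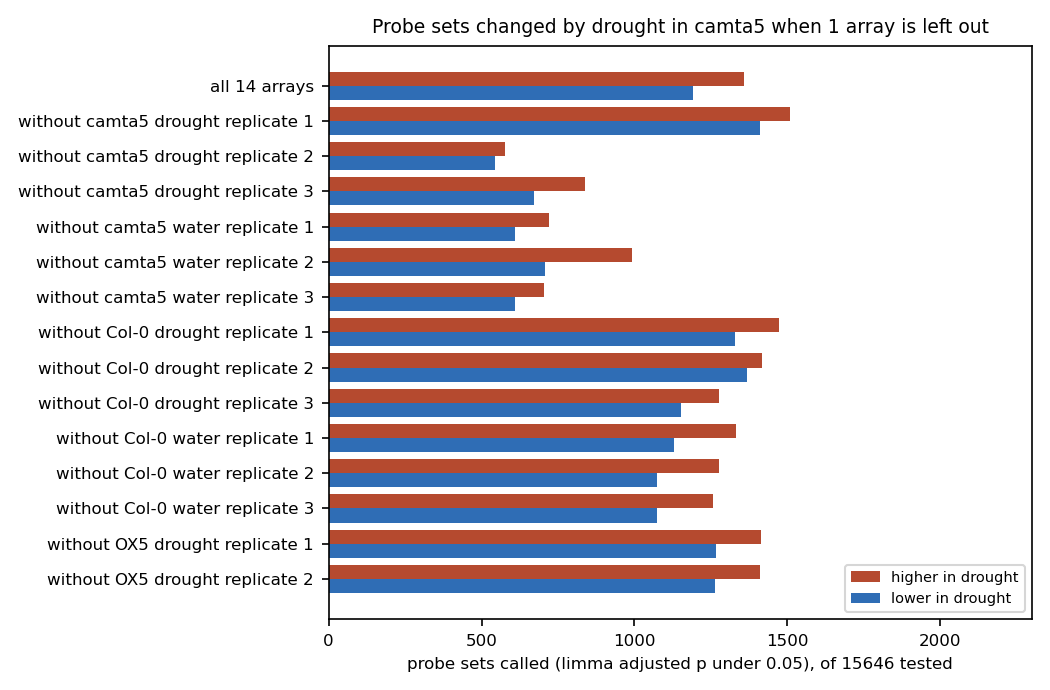
Number of probe sets called higher (red) and lower (blue) in camta5 drought against camta5 water, on the horizontal axis, with all 14 arrays (top) and with each array left out in turn (rows below). The bars shorten most without camta5 drought replicate 2 (577 higher, 544 lower) and lengthen most without camta5 drought replicate 1 (1509 higher, 1411 lower).

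Most of the measured genes that protect cells from water loss rose, and a cold-regulated one fell. The 8 measured genes of the dehydration list, all tested, had a median difference of 2.2, against 0.06 over the 8469 genes tested. Of the 8 genes 5 rose and 1 fell, where over all genes tested 720 of 8469 rose and 573 fell. Without any 1 of drought replicates 2 and 3 or the watered arrays 3 of the 8 were called higher. DI21 (AT4G15910), named for its induction by drought, had signals of 1648, 3416 and 1653 in drought, against 67.1, 194 and 61.3 with water. No drought array overlapped a watered one, and DI21 rose by 4.26 ± 0.63 (adjusted p = 0.00119). HIS1-3 (AT2G18050), the drought-inducible variant of the linker histone H1, had 4366, 7459 and 3338 in drought, against 517, 665 and 467 with water, and rose by 3.10 ± 0.25 (adjusted p = 1.89e-05). Both were steady.

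The late embryogenesis abundant protein gene LEA4-5 (AT5G06760) had 777, 5501 and 3400.3 in drought, against 117, 210.3 and 81.9 with water, and rose by 4.1 ± 0.69 (adjusted p = 0.00227). Its drought arrays lay far apart from each other, with replicate 1 the lowest, but all lay above the watered arrays, and the difference was 4.92 without drought replicate 1. Its relative AtLEA4-1 (AT1G32560) had 155, 912 and 552 in drought, against 135, 124 and 84.5 with water, and rose by 1.80 ± 0.50 (adjusted p = 0.0261), or by 2.50 without drought replicate 1. The dehydrin gene LTI30 (AT3G50970) had 1522, 1394 and 2413 in drought, against 333, 195 and 309 with water, and rose by 2.60 ± 0.76 (adjusted p = 0.0325). All drought arrays of both genes lay above all watered ones. The calls of AtLEA4-1 and LTI30 ended without drought replicate 2, drought replicate 3 or any watered array (adjusted p up to 0.127 and 0.0992).

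The members of the list named COR, for cold-regulated, were not called higher. COR15B (AT2G42530), which encodes a small chloroplast protein that stabilises membranes during freezing, had 308, 172 and 249 in drought, against 1113, 834 and 737 with water. Its drought arrays all lay below the watered ones, and it fell by 1.83 ± 0.26 (adjusted p = 0.000918), a steady call. Its close relative COR15A (AT2G42540) had 2913, 2492 and 4339 in drought and 5297, 4741 and 4979 with water and was not called (-0.66 ± 0.46, adjusted p = 0.358). The dehydrin gene COR47 (AT1G20440) had 14032, 11445 and 14836 in drought and 8088, 7581 and 10362 with water. Its drought arrays lay above the watered ones, but the difference of 0.63 ± 0.30 was not called (adjusted p = 0.161).

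SAG29 (AT5G13170), a senescence-associated sugar transporter of the SWEET family, had 2599.9, 4121 and 2715 in drought, against 149.9, 139 and 124 with water, and rose by 4.33 ± 0.37 (adjusted p = 2.39e-05). It had the largest steady rise of a gene with a symbol, and all drought arrays lay more than an order of magnitude above all watered ones. Another sugar transporter gene of the family, SWEET4 (AT3G28007), had 419, 607 and 569 in drought, against 105, 122 and 128 with water, and rose by 2.01 ± 0.31 (adjusted p = 0.00138). SWEET2 (AT3G14770), whose product carries glucose across the vacuole membrane, went the other way, with 260.3, 334 and 398 in drought against 1630.0, 1792 and 1212 with water, and fell by 2.17 ± 0.27 (adjusted p = 0.000444). For both genes the drought and water arrays did not overlap. Of 16 measured SWEET family genes 10 were tested. Besides these 2 rises and 1 fall none was called, where 16.3% of all probe sets were called. The gene of a sucrose-phosphate synthase, ATSPS4F (AT4G10120), an enzyme of sucrose synthesis, fell by 1.31 ± 0.29 (adjusted p = 0.00865). DPE1 (AT5G64860), a plastid enzyme of starch breakdown, rose by 1.14 ± 0.23 (adjusted p = 0.00565), and both calls were steady.

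MGL (AT1G64660), methionine gamma-lyase, which splits methionine and feeds isoleucine synthesis, had 1826, 4997 and 3852 in drought, against 349, 433 and 304 with water. Every drought array lay above every watered array, and MGL rose by 3.14 ± 0.33 (adjusted p = 0.000165). BETA-VPE (AT1G62710), a vacuolar processing enzyme and thus a cysteine protease, had 791, 1362 and 832 in drought, against 291, 244 and 335 with water, and rose by 1.69 ± 0.29 (adjusted p = 0.00255). URE (AT1G67550), urease, which frees ammonia from urea, rose by 1.09 ± 0.24 (adjusted p = 0.00866), and OASA2 (AT3G22460), a relative of the cysteine synthases, by 1.76 ± 0.41 (adjusted p = 0.0120). The drought arrays of OASA2 were uneven, at 341, 712 and 1654, against 203, 256 and 171 with water, without overlap. All 4 of these genes were steady.

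Further enzymes that handle amino acid carbon and nitrogen rose, but these calls depended on single arrays. They were ALDH7B4 (AT1G54100), an aldehyde dehydrogenase, at 1.65 ± 0.39, DELTA-OAT (AT5G46180), ornithine aminotransferase, at 0.89 ± 0.26, and ASPGA1 (AT5G08100), asparaginase, at 0.54 ± 0.15. Leaving out drought replicate 2, water replicate 1 or water replicate 3 ended each of these calls, as did leaving out drought replicate 3 for DELTA-OAT and ASPGA1 and water replicate 2 for ASPGA1 (adjusted p up to 0.0612, 0.130 and 0.0932). Of the branched-chain amino acid genes, MCCA (AT1G03090) and IVD (AT3G45300), 2 enzymes of leucine breakdown, had differences of 0.88 ± 0.30 and 0.41 ± 0.47 and were not called (adjusted p = 0.0605 and 0.6). Both had drought replicate 1 well below replicates 2 and 3, with 577, 1462 and 1348 for MCCA in drought, against 526, 771 and 438 with water. Of 7 ATG8 genes, which encode the ubiquitin-like coat of autophagosomes, 2 rose and none fell, with a median of 0.49. These were ATG8C (AT1G62040) at 0.46 ± 0.14 and ATG8F (AT4G16520) at 0.67 ± 0.21. Both calls ended without any 1 of the 6 camta5 arrays except that ATG8C held without drought replicate 3, and ATG8F also lost its call without Col-0 drought replicate 3 or Col-0 water replicate 3 (adjusted p up to 0.112 and 0.133). The ATG8 group was formed after the values were seen, and over all genes tested 720 of 8469 rose. Quantile normalization left 1 of the 7 called, and centring each array on its median left none.

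The other genes of the senescence list were not called. Of 7 measured, 6 were tested, with a list median of 0.53. Among them 2 rose (SAG29 and BETA-VPE), where over all genes tested 720 of 8469 rose. GAMMA-VPE (AT4G32940), another vacuolar processing enzyme, had 1976, 4427 and 2767 in drought and 1546, 2162 and 1411 with water and was not called (0.78 ± 0.33, adjusted p = 0.119). SAG101 (AT5G14930) had a difference of 0.29 ± 0.28, and the senescence regulators WRKY53 (AT4G23810) and WRKY6 (AT1G62300) had -0.34 ± 0.33 and -0.25 ± 0.38, all with overlapping groups and none called (adjusted p of 0.525, 0.527 and 0.695). Of the energy and nutrient recycling list, 6 genes were measured and tested, with a median of 0.36. Among them 1 rose (MGL), and over all probe sets 16.3% were called.

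**Figure D2:**
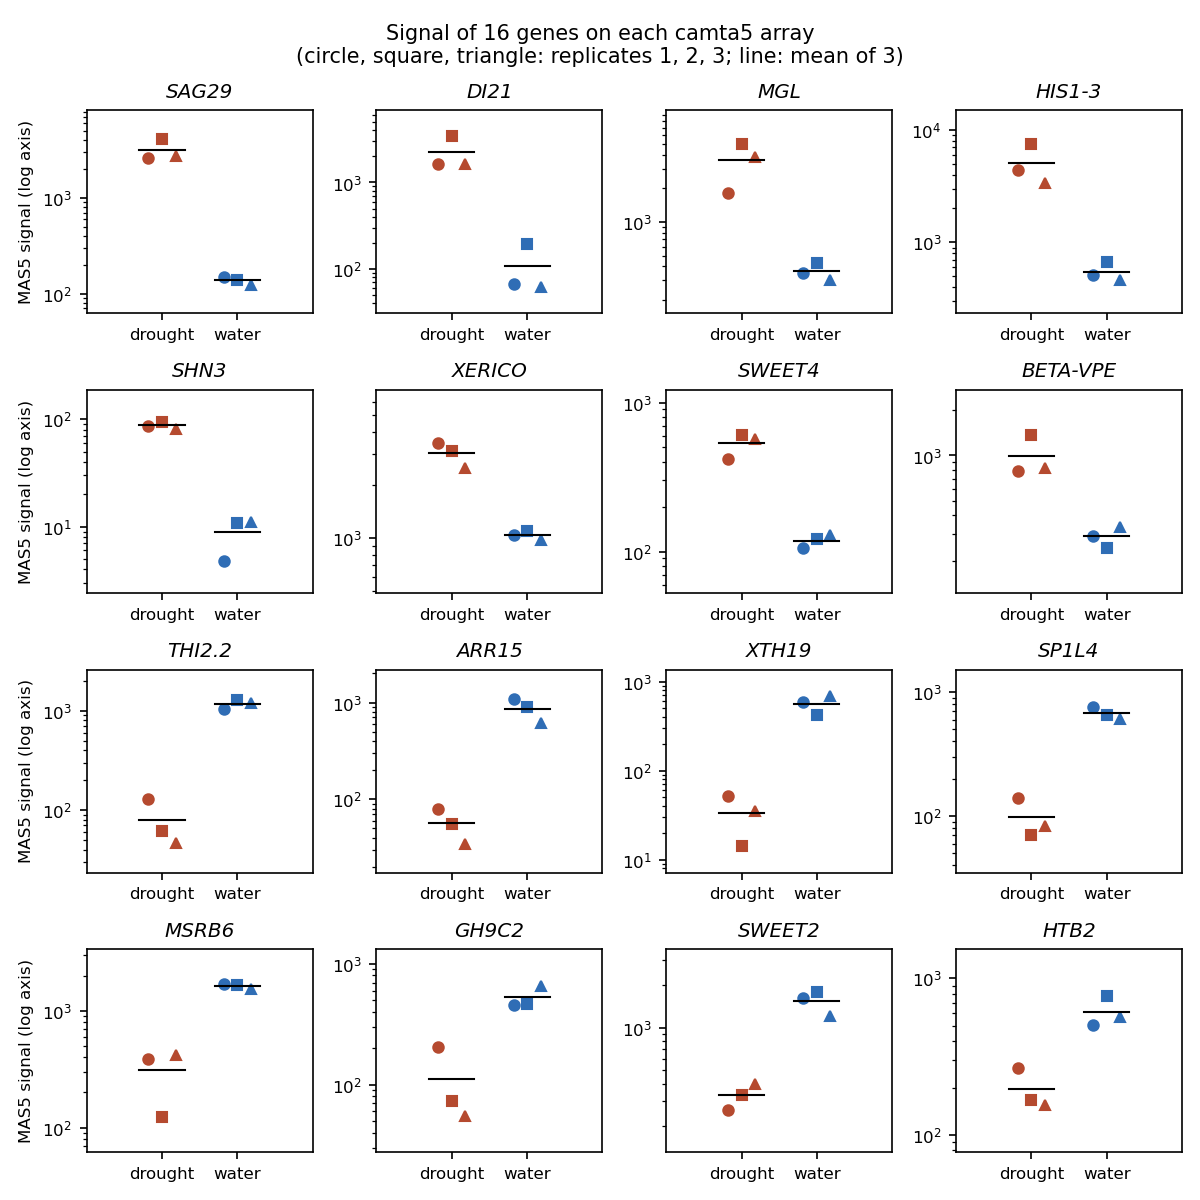
MAS5 signal on a log axis for 16 steady genes on each camta5 array, drought (red) left of water (blue), with 1 marker shape per replicate and a line at the mean of 3. The first 8 panels are genes that rose and the last 8 genes that fell, and in each panel the drought and water arrays are separate.

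Some regulators were among the steady rises. SHN3 (AT5G25390), a transcription factor that switches on wax and cutin synthesis, had 87.3, 93.9 and 82.1 in drought, against 4.81, 10.9 and 11.0 with water. The watered signals were close to the floor of the array, so the rise of 2.07 ± 0.37 (adjusted p = 0.00310) on this scale is an understatement. XERICO (AT2G04240), a RING-finger protein whose overexpression raises abscisic acid, had 3492, 3112 and 2504 in drought, against 1044, 1093 and 968 with water, and rose by 1.53 ± 0.32 (adjusted p = 0.00681). Its groups did not overlap. The only other wax gene measured, WSD1 (AT5G37300), a wax ester synthase, had 482, 51.4 and 204 in drought and 160.2, 208 and 219 with water and was not called. Smaller steady rises were those of MYC3 (AT5G46760), a jasmonate-response transcription factor, by 0.87 ± 0.20, of BZIP28 (AT3G10800), a membrane-held regulator of the endoplasmic reticulum stress response, by 0.85 ± 0.19, of the ethylene-response regulator EIN3 (AT3G20770) by 0.61 ± 0.12, and of SDP1 (AT5G04040), a lipase that breaks down storage oil, by 0.86 ± 0.18. The highest adjusted p among these 4 was 0.0102.

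Further steady rises came from genes of diverse roles. ZW9 (AT1G58270) had 1885, 1880.3 and 2186 in drought, against 511, 572 and 545 with water, and rose by 1.84 ± 0.22 (adjusted p = 0.000256). Its replicates lay close together in both groups. EULS3 (AT2G39050) and JAL34 (AT3G16460), both carbohydrate-binding lectins, rose by 1.81 ± 0.26 and 1.44 ± 0.26. VPS20.1 (AT5G63880), a subunit of the complex that sorts membrane proteins to the vacuole, rose by 1.23 ± 0.23, EPC1 (AT3G55830), a glycosyltransferase-like protein needed for cell adhesion, by 1.11 ± 0.16, and CYP78A9 (AT3G61880), a cytochrome P450 that promotes organ growth, by 1.27 ± 0.22. CCL (AT3G26740), with 7839, 9386 and 6388 in drought against 3517, 3751 and 2744 with water, rose by 1.23 ± 0.19. Also steady were hemf2 (AT4G03205), a coproporphyrinogen oxidase of heme and chlorophyll synthesis, at 1.54 ± 0.35, with watered signals of only 4.41, 2.02 and 15.7, and CPUORF47 (AT5G03190), at 1.36 ± 0.30.

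RNA splicing genes, grouped after their values were seen, rose or were not called. Of 5 genes of the U2AF splicing factor and its partners, 3 rose and none fell, with a median of 0.72. Over all genes tested 720 of 8469 rose. U2AF35B (AT5G42820), the small subunit that recognises the 3′ end of introns, had 935, 1116 and 907 in drought, against 545, 529 and 575 with water. Its groups did not overlap, and it rose by 0.82 ± 0.15 (adjusted p = 0.00362), a steady call. Its paralog ATU2AF35A (AT1G27650) rose by 0.72 ± 0.17 and MAC3B (AT2G33340), a ubiquitin ligase of the spliceosome, by 0.75 ± 0.19. Their calls ended without drought replicate 2 and, for MAC3B, without water replicate 1 (adjusted p up to 0.0627 and 0.0707).

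Among genes that the annotation names by locus only, the 5 largest steady rises were of the size of those of DI21 and HIS1-3. AT3G02480 had 663, 1582 and 932 in drought, against 7.09, 56.2 and 16.6 with water, and rose by 4.74 ± 0.69 (adjusted p = 0.00105). AT2G21820 rose by 4.08 ± 0.48, AT2G37870 by 3.85 ± 0.49, AT3G53980 by 3.80 ± 0.67 and AT2G41190 by 3.23 ± 0.42. For each of the 5 the drought arrays lay above the watered ones, and in AT2G41190 the drought arrays themselves ran over a wide range, at 2831, 12141 and 6994.

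Several genes that loosen and remodel the cell wall fell. Of 18 expansin genes measured, 11 were tested, 4 fell and none rose, with a median of -0.71, where over all genes tested 573 of 8469 fell and the median was 0.06. Of 9 xyloglucan endotransglucosylase genes measured, 5 were tested, 2 fell and none rose, with a median of -1.37. XTH19 (AT4G30290), an enzyme that cuts and rejoins xyloglucan, the polymer that ties cellulose fibres together, had 51.2, 14.2 and 35.2 in drought, against 596, 418 and 681 with water. Its drought arrays lay far below the watered ones, and it fell by 3.60 ± 0.40 (adjusted p = 0.000196). XTH32 (AT2G36870) had 749.6, 278 and 295 in drought, against 1196, 1228 and 1603 with water, and fell by 1.71 ± 0.34 (adjusted p = 0.00528). Both XTH calls were steady.

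The 4 expansin genes that fell encode proteins that let walls creep without cutting them. EXPA16 (AT3G55500) had 65.0, 7.46 and 84.1 in drought, against 279, 305 and 208 with water, and fell by 2.27 ± 0.47 (adjusted p = 0.00642), or by 1.62 without drought replicate 2. EXPA8 (AT2G40610) fell by 2.26 ± 0.60, EXPA4 (AT2G39700) by 1.81 ± 0.42 and EXPB3 (AT4G28250) by 1.46 ± 0.37, and in all 4 genes every drought array lay below every watered array. The calls of EXPA8, EXPA4 and EXPB3 ended without drought replicate 2 or water replicate 3, and that of EXPA8 also without drought replicate 3 or water replicate 2 (adjusted p up to 0.0830, 0.0562 and 0.0778). With drought replicate 2 or water replicate 3 left out, 1 of the 11 expansin genes was called.

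Other wall genes fell too. ATPMEPCRB (AT4G02330), a pectin methylesterase, had 111, 26.9 and 74.3 in drought, against 409, 284 and 435 with water, and fell by 2.29 ± 0.38 (adjusted p = 0.00216). GH9C2 (AT1G64390), an endoglucanase, had 204, 73.0 and 55.0 in drought, against 459, 464 and 659 with water, and fell by 2.26 ± 0.43 (adjusted p = 0.00431). Neither gene had overlapping groups, and both calls were steady. In the glycosyl hydrolase family 9, grouped after the values were seen, 6 of 15 measured genes were tested, with a median of -1.45. Among them 2 fell and none rose, where over all genes tested 573 of 8469 fell. The other one that fell, GH9B16 (AT4G38990), at -1.41 ± 0.44, was low throughout, with 11.7, 25.3 and 7.83 in drought against 68.8, 67.1 and 57.0 with water. Its call ended without any 1 of the camta5 arrays, Col-0 drought replicate 3 or Col-0 water replicate 2 (adjusted p up to 0.123).

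The trichome birefringence-like genes, which add acetyl groups to wall polysaccharides, split. Of 22 measured, 16 were tested, 3 fell and 2 rose, where over all genes tested 573 of 8469 fell and 720 rose. The family's median lay near 0, and its sign changed between settings. TBL45 (AT2G30010) had 123, 58.9 and 86.7 in drought, against 272, 423 and 532 with water, and TBL28 (AT2G40150) had 104, 98.1 and 82.9 in drought, against 269, 288 and 279 with water. They fell by 2.01 ± 0.44 and 1.41 ± 0.27 (adjusted p = 0.00866 and 0.00464), both steady and without overlap. TBL26 (AT4G01080) fell by 2.21 ± 0.64, while TBL38 (AT1G29050) and TBL25 (AT1G01430) rose by 0.67 ± 0.17 and 0.60 ± 0.17. These calls ended without single arrays, for TBL26 any camta5 array but drought replicate 1, for TBL38 water replicate 2 or 3, and for TBL25 drought replicate 1 or 3 or water replicate 1 or 2 (adjusted p up to 0.121, 0.0548 and 0.0979).

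Several genes of microtubules and chromatin fell. SP1L4 (AT5G15600), a member of the SPIRAL1 family of microtubule-binding proteins, had 139, 69.9 and 83.9 in drought, against 758, 649 and 609.9 with water. No arrays overlapped, and SP1L4 fell by 2.64 ± 0.47 (adjusted p = 0.00300). HTB2 (AT5G22880), a histone H2B, had 266, 167 and 155 in drought, against 501, 767 and 566 with water, and fell by 1.58 ± 0.31 (adjusted p = 0.00464). The protein iqd21 (AT3G49260), of a calmodulin-binding family that sits on microtubules and membranes, had 202, 114 and 118 in drought, against 287, 429 and 459 with water, and fell by 1.36 ± 0.27. FTSZ2-2 (AT3G52750), part of the ring that divides chloroplasts, fell by 1.36 ± 0.31. These 4 calls were steady, with adjusted p up to 0.0102.

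Counted by group, all formed after the values were seen, 2 of 4 tested SPIRAL1 genes, 2 of 6 tubulin genes, 3 of 9 IQ domain genes and 2 of 4 core histone genes fell, and no member of these groups rose, where over all probe sets 7.61% fell. The medians were -0.56, -0.32, -0.40 and -0.55, and that of the IQ domain genes turned to 0.09 without water replicate 3 and was -0.08 without drought replicate 2. Without water replicate 2, water replicate 3 or drought replicate 3 none of the 6 tubulin genes was called lower. Besides those above, the members that fell were SP1L3 (AT3G02180) by 0.99 ± 0.23, the tubulin genes TUB5 (AT1G20010) and TUB7 (AT2G29550) by 1.69 ± 0.47 and 0.69 ± 0.19, IQD24 (AT5G07240) and IQD31 (AT1G74690) by 1.04 ± 0.29 and 0.98 ± 0.26, and HTB1 (AT1G07790) by 0.63 ± 0.16. All 6 of these calls ended without drought replicate 3, and all but TUB5 without drought replicate 2. Leaving out water replicate 3 ended all but HTB1, water replicate 2 those of TUB5, TUB7, IQD24 and HTB1, and water replicate 1 those of IQD24 and HTB1 (adjusted p up to 0.116). Without drought replicate 3 TUB5 had a difference of -0.97, since that array held only 17.2, against 126 and 135 on drought replicates 1 and 2.

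Hormone response genes that fell included those of cytokinin and auxin. Of 4 measured genes of the cytokinin list 3 fell, with a median of -1.41, where over all genes tested 573 of 8469 fell. ARR15 (AT1G74890), a type-A response regulator that cytokinin induces and that dampens its signal, had 78.7, 54.8 and 34.7 in drought, against 1093, 891 and 610.3 with water. The groups lay far apart, and ARR15 fell by 3.62 ± 0.44 (adjusted p = 0.000341), a steady call. UGT76C2 (AT5G05860), which inactivates cytokinins by adding glucose, had 181, 174 and 211 in drought, against 764, 644 and 313 with water, and fell by 1.44 ± 0.31 (adjusted p = 0.00831), also steady. RR16 (AT2G40670), another type-A response regulator, had 526, 151 and 329.6 in drought, against 1048, 819.9 and 610.2 with water, and fell by 1.39 ± 0.43. Leaving out Col-0 water replicate 2, Col-0 water replicate 3 or any camta5 array but drought replicate 1 ended that call (adjusted p up to 0.190). The remaining gene, UGT76C1 (AT5G05870), a second cytokinin glucosyltransferase, had 288, 304 and 269 in drought and 313, 293 and 314 with water and was not called. With water replicate 1 counted as Col-0, only 1 of the 4 was called.

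Of the auxin genes, IAA29 (AT4G32280), a repressor of auxin response that auxin and shade induce, had 49.6, 23.1 and 38.0 in drought, against 238, 244 and 172 with water, and fell by 2.16 ± 0.41 (adjusted p = 0.00411) with no overlap, a steady call. GH3.17 (AT1G28130), which joins auxin to amino acids, had 3.19, 5.02 and 3.99 in drought, against 66.4, 33.5 and 67.4 with water, and fell by 1.80 ± 0.53. Its call ended without drought replicate 1, 2 or 3 or water replicate 1 or 3 (adjusted p up to 0.115). IAA18 (AT1G51950) rose by 0.59 ± 0.17, a call that ended without drought replicate 2 or 3 or water replicate 1 or 3 (adjusted p up to 0.146). Of 3 tested Aux/IAA genes 1 rose and 1 fell, and of 2 tested GH3 genes 1 fell. Of the 3 gibberellin receptor genes 1 rose and none fell. Over all genes tested 720 of 8469 rose and 573 fell. The receptor gene that rose was GID1A (AT3G05120), with 536, 433 and 342 in drought against 238, 232 and 277 with water, a difference of 0.75 ± 0.23. That call ended without drought replicate 1 or 2 or any watered array (adjusted p up to 0.111). The calls of IAA18 and GID1A also ended with quantile normalization or with each array centred on its median.

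Transcripts encoded in the plastid genome were lower on 2 of the 3 drought arrays. All 69 plastid genes measured were tested, and 67 had a difference below 0, with a median of -0.63. Of the 69 genes, 16 fell and 1 rose. Over all 8469 genes tested 573 fell and 720 rose, and the median was 0.06. The median distance from the watered mean was 0.14 on drought replicate 1, -0.90 on drought replicate 2 and -0.94 on drought replicate 3. On replicate 1 only 1 gene lay at least 2-fold below the watered mean, against 32 on replicate 2 and 32 on replicate 3. On the watered arrays the median distances lay between -0.17 and 0.16. Without drought replicate 1, 43 of the 69 genes were called lower and none higher. Without drought replicate 2 or 3, 2 were called lower, and without water replicate 1, 2 or 3 the count was 6, 3 and 5. After quantile normalization 55 genes had a difference below 0 and 9 were called lower. All drought arrays lay below all watered arrays in 14 of the 69 genes, a share near the 16.7% of all probe sets. In Col-0 the median distances on drought replicates 1, 2 and 3 were -0.63, -1.12 and -0.94.

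By the complex they encode, the plastid genes had medians between -1.08 and -0.26, and differences between complexes were not tested. The 6 genes of the cytochrome b6f complex, which passes electrons between the photosystems, had a median of -1.08, the 5 of photosystem I -0.81, the 6 of ATP synthase -0.78, the 15 of photosystem II -0.58, the 4 of the plastid RNA polymerase -0.53, the 10 of the NDH complex of cyclic electron flow -0.44 and the 15 ribosomal protein genes -0.26. Called lower were 6 genes of photosystem II, 2 each of photosystem I, ATP synthase and cytochrome b6f, 1 of the NDH complex, and none of the RNA polymerase or ribosomal protein genes. The 3 others called lower were rbcL, ycf4 and cemA.

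Only petN, a small subunit of the cytochrome b6f complex, was steady among them. It had 1122, 379 and 556 in drought, against 3702, 3219.9 and 3181 with water, and fell by 2.41 ± 0.34 (adjusted p = 0.000925), with all drought arrays below all watered ones. The photosystem II core gene psbB had 14193, 2218 and 2287 in drought, against 32982, 19774 and 18502 with water, and fell by 2.46 ± 0.54 (adjusted p = 0.00883), or by 3.34 without drought replicate 1. Its replicate 1 lay much nearer to the watered arrays than the other drought arrays did. The cytochrome b6f gene petG showed this most, with 5863, 383 and 228 in drought, against 3914, 5946 and 5482 with water, where replicate 1 lay among the watered arrays. Its difference was -2.60 ± 0.78 with all arrays, -4.02 without drought replicate 1 and -1.72, no longer called, without drought replicate 3. The Rubisco large subunit gene rbcL had 14716, 9645 and 10191 in drought, against 19129.6, 19924 and 18893 with water, and fell by 0.77 ± 0.20 (adjusted p = 0.0193) without overlap. Calls of petG and rbcL ended without any camta5 array other than drought replicate 1 (adjusted p up to 0.148 and 0.0878). That of rbcL also ended with quantile normalization. The photosystem II genes psbD and psbH, the photosystem I assembly gene ycf4 and the ATP synthase gene atpF had differences of -1.71 ± 0.43, -1.72 ± 0.42, -1.70 ± 0.49 and -1.55 ± 0.47 with all arrays, and without drought replicate 1 these were -2.45, -2.42, -2.55 and -2.35. Their calls ended without drought replicate 2 or 3, and also without water replicate 1 for all but psbH, water replicate 2 for all but psbD, and water replicate 3 for ycf4 and atpF (adjusted p up to 0.0829, 0.0698, 0.133 and 0.168). Of the 16 genes called lower, only petN and psbB were still called without either of drought replicates 2 and 3. The rise was that of rps14, a ribosomal protein gene, with 366, 368 and 368 in drought against 174, 215 and 245 with water (0.76 ± 0.25, adjusted p = 0.0488). That call ended without any 1 of the 6 camta5 arrays, the 3 Col-0 drought arrays or Col-0 water replicate 3 (adjusted p up to 0.164).

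**Figure D3:**
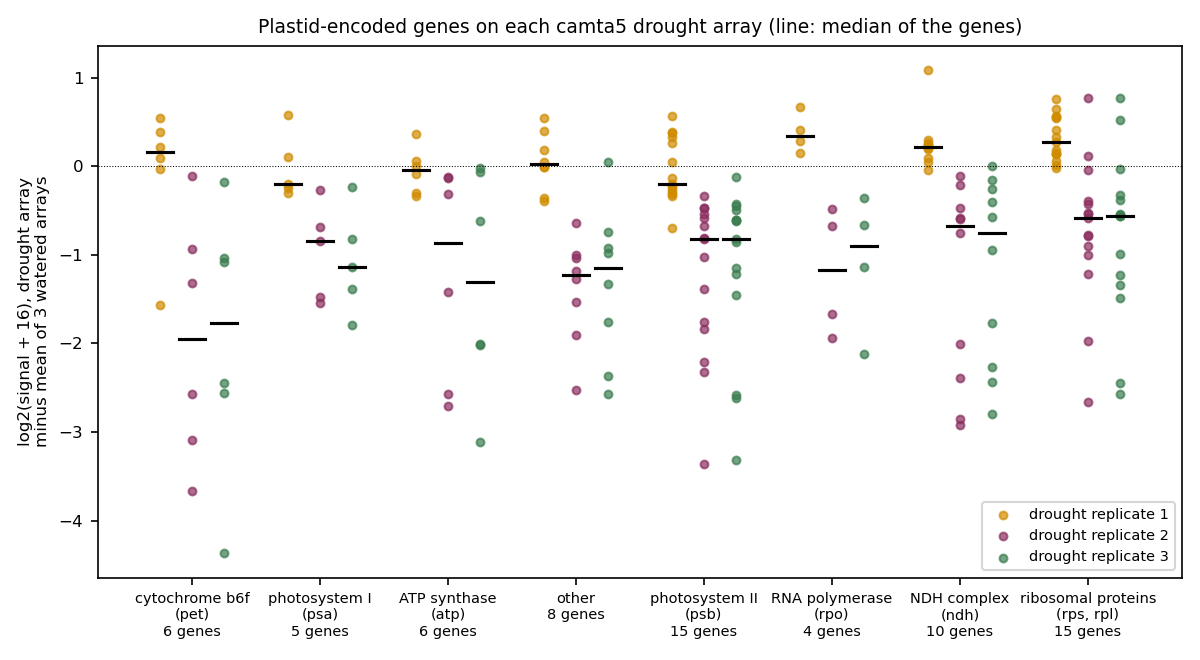
Distance of each plastid-encoded gene on each camta5 drought array from the mean of the 3 watered arrays, on log2(signal + 16) (vertical axis), by the complex the gene encodes (horizontal axis), with lines at the median of the genes. Drought replicate 1 (orange) lies around 0, with a median of 0.14 over all 69 genes, while replicates 2 (purple) and 3 (green) lie below it, with medians of -0.90 and -0.94.

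Some nuclear genes of photosynthesis fell as well. The 6 photosystem and antenna genes, all tested, had a median of -0.76. Among them 2 fell and none rose, where over all genes tested 573 of 8469 fell. PSBY (AT1G67740), a small photosystem II protein, had 14834, 8457 and 10007 in drought, against 21834, 19799.8 and 22173 with water, and fell by 0.98 ± 0.23 (adjusted p = 0.0130). PSAN (AT5G64040), a photosystem I subunit, had 12829, 10322 and 11878 in drought, against 19984, 19435 and 21051 with water, and fell by 0.79 ± 0.19 (adjusted p = 0.0119). Neither overlapped, and both calls ended without drought replicate 2 (adjusted p of 0.0675 and 0.0574), while quantile normalization left 1 of them called. The antenna genes LHCB4.1 (AT5G01530), LHCB4.2 (AT3G08940) and LHCB4.3 (AT2G40100) had differences of -0.37 ± 0.15, -0.72 ± 0.27 and -0.85 ± 0.43 and PSBW (AT2G30570), of photosystem II, -0.33 ± 0.16, and none was called.

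Several genes of the carbon cycle and of pigment synthesis also fell, in groups formed after the values were seen except where a list is named. SBPASE (AT3G55800), sedoheptulose bisphosphatase of the Calvin cycle, had 13220.4, 12573 and 13855 in drought, against 20081, 22425 and 22398 with water, and fell by 0.71 ± 0.15 (adjusted p = 0.00728). LYC (AT3G10230), the lycopene cyclase of carotenoid synthesis, had 1458, 1421 and 1169 in drought, against 3063, 2478 and 2445 with water, and fell by 0.97 ± 0.19 (adjusted p = 0.00422). Both were steady and without overlap, but quantile normalization ended the call of SBPASE. Of 3 tested Calvin cycle genes the other that fell was PRK (AT1G32060), phosphoribulokinase, by 0.59 ± 0.17, and of 2 carotenoid genes the other was Z-ISO (AT1G10830), a carotene isomerase, by 0.69 ± 0.16. The call of PRK ended without any camta5 array but water replicate 3, and that of Z-ISO without drought replicate 2 or water replicate 1 (adjusted p up to 0.0987 and 0.0624). Quantile normalization also ended the call of PRK, which left none of the 3 Calvin cycle genes called, with a median of -0.27. Of 3 measured genes of the chlorophyll list 1 fell, CHLM (AT4G25080), the Mg-protoporphyrin methyltransferase, with 5932, 4795 and 4578 in drought against 9099, 8589.9 and 9132 with water, by 0.82 ± 0.20. PORB (AT4G27440), a protochlorophyllide reductase, and GSA1 (AT5G63570), of the first steps of the pathway, were not called (-0.59 ± 0.34 and 0.31 ± 0.18, adjusted p = 0.254 and 0.248). CHLI2 (AT5G45930), a subunit of magnesium chelatase, fell by 0.98 ± 0.25. The calls of CHLM and CHLI2 ended without drought replicate 2 or 3 or water replicate 1 or 3 (adjusted p up to 0.0591 and 0.0742). The 9 tested tetrapyrrole synthesis genes in all had a median of -0.27. Among them 4 fell and 1 rose (hemf2), where over all genes tested 573 of 8469 fell and 720 rose. The others that fell were HEME2 (AT2G40490), uroporphyrinogen decarboxylase, by 0.56 ± 0.17, and LIL3:1 (AT4G17600), which anchors enzymes of the last steps, by 0.75 ± 0.23. Both calls ended without drought replicate 2 or 3 or any watered array (adjusted p up to 0.135 and 0.152), and that of LIL3:1 also with quantile normalization.

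Of the defence genes, a thionin and a defensin gene fell, and the others were not called. Of 5 defence genes of the list, 2 fell and none rose, with a median of -1.73, where over all genes tested 573 of 8469 fell. THI2.2 (AT5G36910), a thionin, which is a small antimicrobial peptide, had 130.2, 61.7 and 46.7 in drought, against 1042, 1295 and 1193 with water. It fell by 3.73 ± 0.39 (adjusted p = 0.000136), the largest steady fall of a gene with a symbol, with all drought arrays far below all watered ones. The jasmonate and ethylene marker PDF1.2 (AT5G44420), a defensin, had 51.6, 35.4 and 84.3 in drought, against 392, 337 and 195 with water, and fell by 2.15 ± 0.62. That call ended without drought replicate 1 or 2 or water replicate 1 or 2 (adjusted p up to 0.110). Its near-copy PDF1.2b (AT2G26020) had 18.9, 77.3 and 339 in drought, against 394, 729 and 124 with water, overlapped between the groups and was not called (-1.73 ± 0.78, adjusted p = 0.145), and the probes of such copies may share signal. The thionin THI2.1 (AT1G72260), which jasmonate induces, had 55.8, 169 and 66.6 in drought and 13.8, 45.7 and 3.41 with water, above without overlap but not called (1.65 ± 0.77, adjusted p = 0.160). GRX480 (AT1G28480), a salicylate-induced glutaredoxin, had 457, 296 and 1616 in drought and 379, 361 and 632 with water and was not called.

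Of 6 measured flavonoid genes 5 were tested, with a median of -0.47. Among them 1 fell and none rose, and over all probe sets 16.3% were called. CHIL (AT5G05270), a chalcone isomerase-like protein that helps the first enzymes of the pathway, had 233, 69.4 and 66.5 in drought, against 612, 608 and 565 with water, and fell by 2.34 ± 0.61 (adjusted p = 0.0195) without overlap. That call ended without drought replicate 2 or 3 or any watered array (adjusted p up to 0.0811). The anthocyanin gene DFR (AT5G42800), dihydroflavonol reductase, had 49.7, 45.4 and 47.5 in drought and 34.6, 11.6 and 49.3 with water and was not called. UF3GT (AT5G54060), an anthocyanin glycosyltransferase, had 33.3, 36.5 and 14.4 in drought and 2.97, 31.8 and 8.81 with water, and the flavonol glycosyltransferase genes UGT78D2 (AT5G17050) and UGT78D1 (AT1G30530) had differences of -0.54 ± 0.24 and -0.47 ± 0.30, none of them called.

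BCAT4 (AT3G19710), the aminotransferase that starts methionine-derived glucosinolate synthesis, had 802, 1921 and 2906 in drought, against 5285, 4427 and 5141 with water. It fell by 1.57 ± 0.32 (adjusted p = 0.00633), a steady call without overlap. The only other glucosinolate gene measured, UGT74B1 (AT1G24100), had 1793, 1728 and 1959 in drought and 1731, 1459 and 2249 with water and was not called. MSRB6 (AT4G04840), a methionine sulfoxide reductase that repairs oxidised proteins, had 389, 123 and 418 in drought, against 1684, 1664 and 1535 with water, and fell by 2.50 ± 0.34 (adjusted p = 0.000653), steady and without overlap. It was the only one of 5 such genes called, beside 16.3% of all probe sets. GSTU20 (AT1G78370), a tau class glutathione transferase, had 1413, 1073 and 1459.6 in drought, against 4653, 2999 and 3818 with water, and fell by 1.52 ± 0.31 (adjusted p = 0.00596), also steady. In that class 7 of 11 measured genes were tested, with a median of -0.36. Among them 2 fell and none rose, where over all genes tested 573 of 8469 fell. The second, GSTU27 (AT3G43800), fell by 1.11 ± 0.26, a call that ended without drought replicate 3 or water replicate 3 (adjusted p up to 0.0543).

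Over all probe sets 16.3% were called, and other large enzyme families are given beside that share. Of 47 UDP-glycosyltransferase genes measured, 31 were tested, and 1 rose (UGT73B5, AT2G15480, by 1.23 ± 0.30) and 1 fell (UGT76C2). Of 26 cytochrome P450 genes, 15 were tested, and 3 rose and 2 fell, and these were CYP78A9 and the CYP71B genes below. Neighbouring genes of the CYP71B group moved in opposite directions. CYP71B22 (AT3G26200) had 45.0, 75.6 and 23.5 in drought, against 179, 342 and 183 with water, and fell by 1.99 ± 0.38 (adjusted p = 0.00401), a steady call. CYP71B23 (AT3G26210) had 503, 379 and 731 in drought, against 259, 233 and 177 with water, and rose by 1.18 ± 0.30 (adjusted p = 0.0166). Neither overlapped between the groups, and CYP71B23 lost its call without drought replicate 3 or water replicate 3 (adjusted p up to 0.0714). CYP71B26 (AT3G26290) rose by 1.19 ± 0.34 and CYP71B29 (AT1G13100) fell by 1.25 ± 0.35, calls that ended without drought replicate 2 or 3 or water replicate 1 or 2 (adjusted p up to 0.136 and 0.106). UGT73B5 lost its call without drought replicate 2 or 3 or water replicate 1 (adjusted p up to 0.0686). Of 20 beta-glucosidase genes 9 were tested and 2 fell, and of 29 serine carboxypeptidase-like genes 14 were tested and 2 fell, with none higher in either family. The steady ones were BGLU16 (AT3G60130), which fell by 0.93 ± 0.19, and scpl25 (AT3G02110), which fell by 1.18 ± 0.26. BGLU44 (AT3G18080) fell by 0.97 ± 0.26 and scpl46 (AT2G33530) by 0.53 ± 0.16, and both lost their call without drought replicate 2 or 3 or water replicate 2 or 3, scpl46 also without water replicate 1 (adjusted p up to 0.0966 and 0.123).

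**Figure D4:**
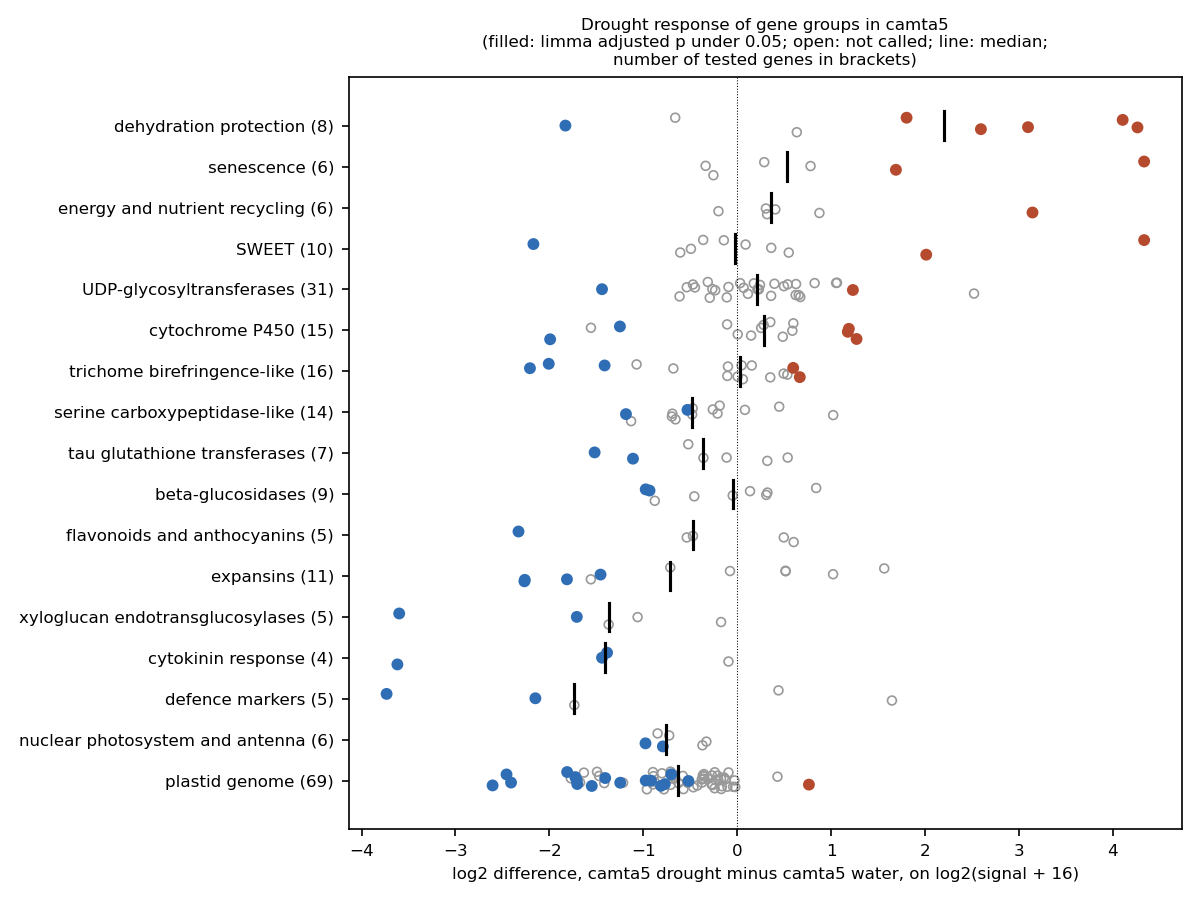
Log2 difference of camta5 drought minus camta5 water for each tested gene of 17 groups (points, filled where called) with the group's median (line) and the number of tested genes in brackets. The medians run between 2.2 for the dehydration genes and -1.73 for the defence genes, and the UDP-glycosyltransferase and cytochrome P450 genes lie on both sides of 0.

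Single regulators of other pathways also changed. The bHLH transcription factor bHLH115 (AT1G51070), which acts in iron deficiency, had 461, 215 and 249.5 in drought, against 675, 713 and 703 with water, and fell by 1.21 ± 0.24 (adjusted p = 0.00498). PUB26 (AT1G49780), a U-box ubiquitin ligase, had 328, 437 and 437 in drought, against 784, 709 and 1059.7 with water, and fell by 1.05 ± 0.20. LUL4 (AT3G06140), a RING-type ubiquitin ligase, fell by 1.60 ± 0.34 (adjusted p = 0.00709). None of the 3 overlapped, and all were steady. Of 3 measured genes of the clock list, GI (AT1G22770), GIGANTEA, had 173, 142 and 163 in drought, against 245, 314 and 287 with water. GI fell by 0.76 ± 0.19 without overlap. AFR (AT2G24540), an F-box protein of phytochrome A signalling, rose by 0.93 ± 0.30. It had 3710.3, 7764 and 8106 in drought against 4456, 2648 and 2829.6 with water, which overlapped. COR27 (AT5G42900), a night-phased regulator, was not called (0.86 ± 0.39, adjusted p = 0.146). The call of GI ended without drought replicate 2 or water replicate 2 or 3, and that of AFR without drought replicate 2 or 3, water replicate 2 or 3, any of the Col-0 water arrays or Col-0 drought replicate 3 (adjusted p up to 0.0653 and 0.180). The labels do not give the time of day of sampling.

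Of 7 calmodulin-like genes 6 were tested and 1 was called, a share near the 16.3% of all probe sets. It was CML42 (AT4G20780), a calcium sensor of leaf hairs, which fell by 0.99 ± 0.26. That call ended without drought replicate 1 or 2 or water replicate 2 or 3 (adjusted p up to 0.0932). STZ (AT1G27730), a zinc-finger repressor of the rapid stress response, had 1254, 2549 and 2208 in drought and 1978, 2859.7 and 4019 with water and was not called (-0.56 ± 0.30, adjusted p = 0.224). No gene of the abscisic acid lists, the osmolyte list or the sugar transport list was measured under a probe set naming it alone, so these groups were not analysed here.

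Steady falls without a symbol were led by AT3G05730, which had 54.7, 19.9 and 63.8 in drought, against 1252, 1537 and 1801 with water, and fell by 4.70 ± 0.35 (adjusted p = 1.89e-05), the largest fall of any probe set tested. AT2G27420 fell by 3.58 ± 0.45, AT5G03350 by 3.52 ± 0.55, AT2G18210 by 3.29 ± 0.42 and AT1G62480 by 3.22 ± 0.45, and none of these 5 overlapped between the groups. Further steady falls with a symbol were those of DRT100 (AT3G12610) at -2.16 ± 0.34, and of ATLP-1 (AT1G18250), a thaumatin-like protein, at -2.11 ± 0.42, whose signals were low, with 13.7, 5.21 and 5.22 in drought against 39.4, 157 and 95.7 with water.

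Markers of cell types were checked beside these results. Of 11 leaf mesophyll markers 3 were measured. Rubisco activase RCA (AT2G39730) had 29871 to 35950.5 in drought and 34478 to 41941 with water and was not called (-0.15 ± 0.15, adjusted p = 0.539), and the others are PSAN and PSBY. Of 6 guard cell markers only FAMA was measured, at 213 to 310 in drought and 251 to 376 with water, not called. Of 5 trichome markers 2 were measured, with TRY (AT5G53200) at 147 to 336 in drought and 348 to 450 with water, not called, and GIS (AT3G58070) at 774 to 1151 in drought and 499 to 600 with water. GIS rose by 0.87 ± 0.26, a call that ended without drought replicate 1 or 2 or any watered array (adjusted p up to 0.128). Of 7 root markers EXPA7 and EXPA18 did not pass the filter on low values, at 1.83 to 10.2 and 6.74 to 17.1 in drought and 6.04 to 43.8 and 7.12 to 30.9 with water, and PYK10 (AT3G09260), which other green tissue can also express, had 64.1, 115 and 88.7 in drought, against 4.44, 2.80 and 35.7 with water. PYK10 rose by 1.93 ± 0.58, a call that ended without drought replicate 2 or 3 or water replicate 1 or 2 (adjusted p up to 0.127). No marker of phloem, flower, pollen or seed was measured. The part of cell type proportions in the results above was not tested.

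Set beside the drought response of Col-0, that of camta5 showed no probe set with a called difference. In Col-0, 4277 probe sets were called (27.3%), of which 2441 were higher (15.6%) and 1836 lower (11.7%). The test of the difference between both responses called 0 of 15646 probe sets by limma, with a smallest adjusted p of 0.472, and 885 had an unadjusted p under 0.05. Without Col-0 drought replicate 1 it called 37. Of the 1357 probe sets called higher in camta5, 1335 had a positive difference in Col-0, and of the 1190 called lower, 1172 had a negative one. Over all 15646 probe sets tested the median difference in Col-0 was 0.08, and their signs in Col-0 were not counted. Of the 75 steady genes with a symbol, 33 of the 36 that rose and 35 of the 39 that fell were also called in Col-0 by themselves. MED19A (AT5G12230), a Mediator subunit, alone had the opposite sign, at 0.78 ± 0.17 in camta5 and -0.03 in Col-0 (unadjusted p of the difference 0.00407, adjusted p = 0.753). For the rises the median was 1.12 in camta5 and 1.23 in Col-0, and for the falls -1.52 in camta5 and -1.43 in Col-0. The steady genes were chosen by their camta5 values, so these medians cannot measure how alike the responses are.

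**Figure D5:**
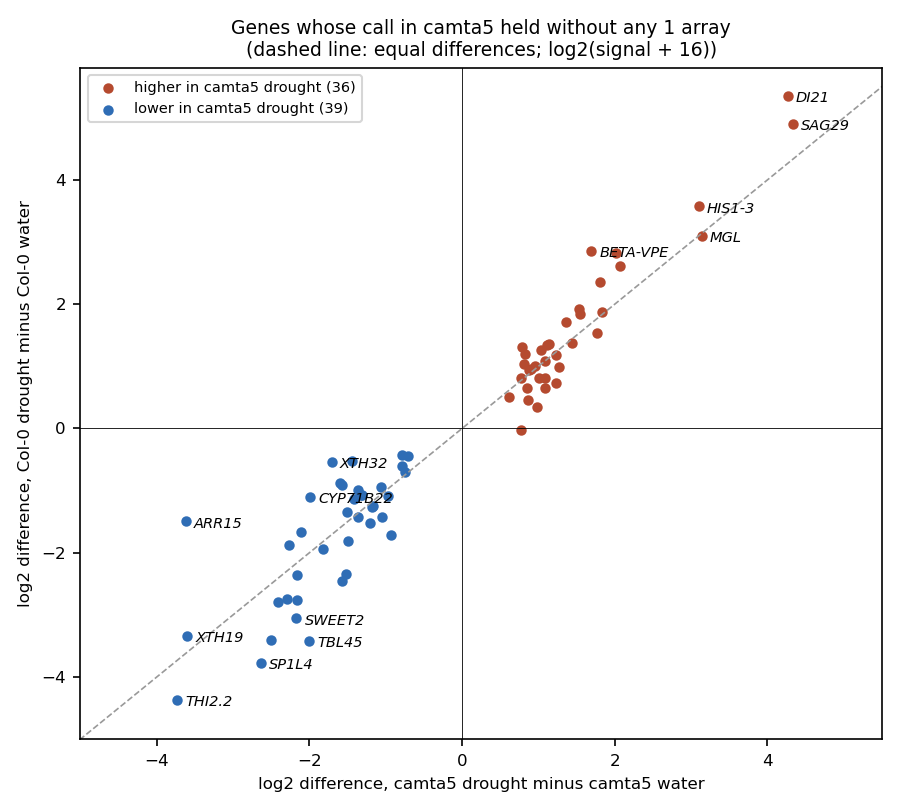
Log2 difference of drought minus water in camta5 (horizontal axis) and in Col-0 (vertical axis) for the 75 steady genes with a symbol, 36 that rose (red) and 39 that fell (blue) in camta5. Most lie near the dashed line of equal differences, and ARR15 lies furthest to the camta5 side of it, at -3.62 in camta5 and -1.50 in Col-0. The genes were chosen by their camta5 values, so nearness to the line does not measure how alike the responses are.

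An unadjusted p under 0.05 for the difference between the responses was found for 885 of the 15646 probe sets tested. Among the steady genes it was found for 3 of the 36 that rose and 5 of the 39 that fell, and none passed the correction. Besides MED19A these are given here, with 1 gene known by its locus that was chosen after its values were seen. ARR15 had 78.7, 54.8 and 34.7 in camta5 drought and 1093, 891 and 610.3 in camta5 water, and 106, 42.2 and 58.8 in Col-0 drought and 87.9, 276 and 378 in Col-0 water, so that it fell by 3.62 ± 0.44 in camta5 and had a difference of -1.50 in Col-0 (difference of the responses -2.12 ± 0.62, unadjusted p = 0.00375, adjusted p = 0.753). AT5G03350 fell by 3.52 ± 0.55 in camta5, with -1.10 in Col-0 (unadjusted p = 0.00713), and XTH32 fell by 1.71 ± 0.34 in camta5, with -0.54 in Col-0 (unadjusted p = 0.0293). Others had a smaller difference in camta5 than in Col-0, with BETA-VPE at 1.69 ± 0.29 in camta5 and 2.86 in Col-0 (unadjusted p = 0.0126), PRH75 (AT5G62190), an RNA helicase, at 0.78 ± 0.15 in camta5 and 1.31 in Col-0 (unadjusted p = 0.0204), BGLU16 at -0.93 ± 0.19 in camta5 and -1.71 in Col-0 (unadjusted p = 0.0103), SWEET2 at -2.17 ± 0.27 in camta5 and -3.06 in Col-0 (unadjusted p = 0.0353) and TBL45 at -2.01 ± 0.44 in camta5 and -3.42 in Col-0 (unadjusted p = 0.0392).

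The 5 genes with a symbol and the smallest p in the test of the difference were not called by drought in camta5. DFR had 49.7, 45.4 and 47.5 in camta5 drought and 34.6, 11.6 and 49.3 in camta5 water, and 352, 606 and 5963 in Col-0 drought and 2.42, 5.95 and 5.20 in Col-0 water. Its drought signal thus stayed low on every camta5 array, while the Col-0 drought arrays ran over more than an order of magnitude among themselves, and the difference of the responses was -5.27 ± 1.02 (unadjusted p = 0.000130, adjusted p = 0.472). UGT74B1 had 0.03 ± 0.19 in camta5 and -1.14 in Col-0 (unadjusted p = 0.000645, adjusted p = 0.601). AKINBETA1 (AT5G21170), a subunit of the energy-sensing SnRK1 kinase, had -0.20 ± 0.18 in camta5 and -1.20 in Col-0 (adjusted p = 0.618), SWEET1 (AT1G21460), a glucose transporter, -0.49 ± 0.36 in camta5 and 1.45 in Col-0 (adjusted p = 0.633), and ASPGB1 (AT3G16150), an asparaginase, -0.13 ± 0.40 in camta5 and -2.23 in Col-0 (adjusted p = 0.671).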

How the data were processed

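Leaf RNA of 14 samples was measured on 1 Affymetrix array each. Values were made with Affymetrix Expression Console and MAS5, per the submitters' processing notes, with versions not given in the sources used here. The deposited values are MAS5 signals, which are probe set intensities on a linear scale summarised by the authors. Their trimmed mean, leaving out 2% of probe sets at each end, came to 500 on every array. Of 22810 probe sets, 64 controls were left out and 7100 were dropped as low, with fewer than 2 arrays above that array's own 40th percentile, leaving 15646. No depth exists for arrays, so their number limits the precision.

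Differences of log2(signal + 16) were tested with limma 3.58.1 in R 4.3.3 (lmFit, eBayes with trend, 1 mean for each of 5 groups over 14 arrays), with Benjamini-Hochberg adjustment over all probe sets. The code was tested on simulated data. Genes were named from the platform annotation, updated through RefSeq TAIR10.1: 13513 probe sets name 1 gene, 503 several and 8794 none, and 13436 matched. A gene is represented by its probe set with the highest mean over all arrays. Of 327 list entries 56 were measured and 7 were left out because name and locus disagreed. The text names the 20 largest steady rises and falls with a symbol and 5 each way with a locus only. Up to 4 called members of each list are named, and 5 genes of the difference between genotypes. Several lists of at most 8 measured genes are given whole, but not all uncalled members of the small lists and families are named. Further genes were chosen after their values were seen. All members and lists were chosen with earlier results of these data known. Alternatives covered the offset, filter, normalization, moderation, array weights, arrays included and the label of camta5 water replicate 1.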

Additional observations from a re-analysis of the deposited data

How the results depend on the processing

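The number of probe sets called was 2547 (1357 higher, 1190 lower). Leaving out 1 array in turn gave 1121 to 2920, with 577 to 1509 higher and 544 to 1411 lower, and 0 to 37 for the difference between the responses of camta5 and Col-0. With camta5 water replicate 1 counted as Col-0 water there were 1445 (769 higher, 676 lower), with a change of at least 2-fold required 1090 (494 and 596), and at an adjusted p under 0.01 there were 838 (439 and 399). The other offsets, filters, normalizations, moderations and array sets gave 2131 to 3442 calls, the highest with array weights. The difference between the responses was 0 under each alternative that kept all arrays of its groups. Of 134 genes named in the report and the observations with a call, 69 kept it under every other offset, filter, normalization, moderation, array set and label and without any 1 array, and 63 lost it when some array was left out, while the stricter thresholds were applied to counts only. Among genes that were not called, the sign turned for ASPGB1 (-0.51 to 0.075 without 1 array, with 0.072, 0.048 and 0.075 without camta5 water replicate 2, drought replicate 1 and drought replicate 2), FAMA (-0.23 to 0.044 without 1 array, with 0.044 without water replicate 2 and 0.042 without drought replicate 2), GRX480 (-0.26 to 0.94, lowest without drought replicate 3), RCA (0.047 with quantile normalization), UGT74B1 (-0.11 to 0.20, with -0.054 centred on the median, -0.11 without water replicate 2 and -0.020 without drought replicate 3), WRKY6 (-0.74 to 0.082, highest without drought replicate 1) and WSD1 (-0.79 to 0.66, highest without drought replicate 2). The cause was not tested. Replicate numbers gave no sign of pairing, with deviations of same-numbered drought and water arrays correlated at -0.07, 0.09 and -0.02. Differently numbered arrays correlated at -0.15 to 0.16, and these values do not exclude pairing. With the replicate number as a block 2483 probe sets were called (1309 higher, 1174 lower). Signals near the array floor limit the size of differences for low genes.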

Other observations

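Further enzyme groups, formed after the values were seen, moved in both directions. Of 8 tested plant U-box ubiquitin ligase genes, 3 fell and 1 rose, where over all probe sets 7.61% fell and 8.67% rose. Their median of 0.17 turned to -0.43 without drought replicate 3, where 4 fell and none rose, while leaving out any other camta5 array left 1 that fell. Besides PUB26, PUB25 (AT3G19380) had 224, 451 and 507 in drought, against 659, 684 and 1148 with water, and fell by 1.08 ± 0.32 (adjusted p = 0.0321). PUB22 (AT3G52450), a ligase known to dampen drought and immune responses, had 50.7, 6.10 and 169.6 in drought, against 166, 178 and 305 with water, and fell by 1.79 ± 0.58. Its difference was -1.01 and no longer called without drought replicate 2, and -2.55 without drought replicate 3. The call of PUB22 also ended without drought replicate 1, any watered array, Col-0 drought replicate 1 or 3, or any Col-0 water array (adjusted p up to 0.204). PUB49 (AT5G67530) rose by 0.66 ± 0.17, a call that ended without drought replicate 3 or water replicate 2 or 3, and PUB25 lost its call without drought replicate 1 or 2 or any watered array (adjusted p up to 0.0802 and 0.139).

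Of 8 aldehyde dehydrogenase genes, 2 rose and 1 fell, where over all genes tested 720 of 8469 rose and 573 fell. Besides ALDH7B4, ALDH10A8 (AT1G74920), an enzyme that oxidises aminoaldehydes, had 3331, 4387 and 4069 in drought, against 2882, 2218 and 2305 with water, and rose by 0.67 ± 0.18. ALDH3F1 (AT4G36250) had 627, 321 and 244 in drought, against 641, 710.1 and 725 with water, and fell by 0.88 ± 0.27. Both calls ended without drought replicate 2 or 3 or water replicate 2 or 3, and that of ALDH3F1 also without water replicate 1 (adjusted p up to 0.0897 and 0.151). Over all genes tested 720 of 8469 rose, and of 6 tested cellulose synthase and relative genes 1 rose. It was CSLD2 (AT5G16910), with 773, 563 and 861 in drought against 217, 431 and 304 with water, at 1.2 ± 0.31, and its call ended without drought replicate 3 or water replicate 1 or 3 (adjusted p up to 0.0851).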
